A study of Mus musculus with 6 samples.

Results

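Nqo1 and Pir are a pair of genes of the oxidative stress response, taken by gene name from a table of 1386 genes and loci that the authors deposited for intestinal epithelial cells of mice that received either Akkermansia muciniphila (Akk), which lives in gut mucus and degrades it, or PBS, its carrier. Both names were found, so 2 of 1386 rows are described here. All mice were wild type by the labels and ate normal chow. From 8 weeks of age the Akk group received 400000000 bacteria a day by mouth for 7 weeks, and the PBS group received PBS. There were 3 libraries in each group, numbered 1 to 3, and nothing states that each came from its own mouse, so the spread between libraries may in part be technical. The series title places the work in the jejunum and on lipid absorption.

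NAD(P)H quinone dehydrogenase 1, the product of Nqo1, is a cytosolic flavoenzyme that reduces quinones directly to hydroquinones and so keeps them out of the radical-forming semiquinone state. Its gene is a standard readout of NRF2 (gene Nfe2l2), a transcription factor that KEAP1 holds in check until electrophiles or oxidants release it to bind antioxidant response elements together with small MAF proteins. Nqo1 is also induced through the aryl hydrocarbon receptor, which senses dietary and microbial ligands in the gut. Pir encodes pirin, an iron-binding nuclear protein of the cupin family that interacts with the NF-kB co-regulator BCL3 and with NFI transcription factors, and in human cells its gene is a known NRF2 target.

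The promoters of both genes are shown because the pair shares a regulator by background knowledge and because both were lower in Akk. The sequences are from RefSeq (GRCm38.p6) and end before the first base that either RefSeq or GENCODE M21 places in the gene, which leaves out 1 and 60 bases next to the RefSeq start of Nqo1 and Pir. Capitals mark matches to the letters of the antioxidant response element core (TGACNNNGC), the AP-1 site (TGANTCA), the xenobiotic response element core (GCGTG) and the TATA box (TATAAA), searched on both strands.
Nqo1 promoter, chr8:107403207-107403455, minus strand: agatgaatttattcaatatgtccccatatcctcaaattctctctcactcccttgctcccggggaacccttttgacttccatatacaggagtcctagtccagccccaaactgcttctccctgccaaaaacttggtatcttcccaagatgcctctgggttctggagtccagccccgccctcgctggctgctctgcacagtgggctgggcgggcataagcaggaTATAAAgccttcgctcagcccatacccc
Pir promoter, chrX:164269181-164269370, plus strand: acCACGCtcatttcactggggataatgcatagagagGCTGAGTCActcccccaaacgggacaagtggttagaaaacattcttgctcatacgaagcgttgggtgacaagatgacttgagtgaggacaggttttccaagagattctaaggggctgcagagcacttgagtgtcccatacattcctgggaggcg

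The Pir window held the antioxidant response element core in reverse orientation as GCTGAGTCA, first base 214 bases before the RefSeq start, and the AP-1 letters TGAGTCA lie inside the same stretch. A second match to the core, GCGGAGTCA, began 20 bases after that start. The core was found in 12.4% of the 32851 RefSeq promoter windows of 300 bases, and the AP-1 letters in 7.81%. The xenobiotic response element letters in the Pir window, first base 248 bases before the start, were found in 32.4% of windows. The Nqo1 window held a TATA box 29 bases before the start, a motif found in 13.6% of windows. It held no match to the 3 other motifs, which says only that these letters are not in this window. A match is a description of letters, not evidence of binding.

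The depth implied by counts and FPKM (fragments corrected for gene length and library depth) was 23614092 to 29441074 fragments per library. Every row of the table carries the authors' mark of higher (346) or lower (1040) in Akk, with p-values of at most 0.0498 and a log2 fold change of at least 0.585 in size in the authors' deposited table. The authors thus selected the rows on these same libraries. The values of Nqo1 and Pir are therefore a description, and no test of Akk against PBS is given. Genes outside the table either missed those thresholds or were not measured. PBS replicate 2 differed from all other libraries: over the 1040 rows marked lower, the median ratio of its level to the mean level of PBS replicates 1 and 3 was 5.74 (CPM, counts scaled to the recovered depth).

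Nqo1 (ENSMUSG00000003849) lies on chromosome 8 from 107388225 to 107403206, minus strand, GRCm38 in GENCODE M21. No other annotated gene overlaps it. Its FPKM was 15.1, 19.3 and 15.4 in PBS replicates 1 to 3. It was 6.06, 6.99 and 7.43 in Akk replicates 1 to 3. Every Akk library lay below every PBS library, and the lowest PBS library had 2.03 times the CPM of the highest Akk library. Group means were 6.82 ± 0.698 FPKM in Akk and 16.6 ± 2.34 in PBS (SD, n = 3), so that PBS exceeded Akk 2.43-fold.

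Between 395 and 1010 counts per library stood behind each Nqo1 value. Exact Poisson 95% intervals, which cover counting error only, ran up to 18.1 CPM in Akk and down to 31.2 CPM in PBS, and so did not meet. The log2 fold change of Akk over PBS fitted to the counts over the whole table with edgeR was -1.28 (SE 0.54). The authors' deposited table gives Nqo1 a log2 fold change of -0.86 and a p-value of 6.02e-05. That fold change is smaller in size than the fit and the FPKM ratio, and so is the one given for Pir, and the tool behind them is not given in the sources used.

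Pir (ENSMUSG00000031379) lies on chromosome X from 164269371 to 164373011, plus strand, in the same annotation. A small nucleolar RNA gene on the same strand, Gm22023, lies within it and is not listed. Pir was a low-abundance transcript with an FPKM of 1.21, 1.97 and 1.18 in PBS replicates 1 to 3. In Akk replicates 1 to 3 it was 0.114, 0.147 and 0.337. The groups did not overlap, and the lowest PBS library had 3.67 times the CPM of the highest Akk library. Group means were 0.199 ± 0.120 FPKM in Akk and 1.45 ± 0.449 in PBS (SD, n = 3), a PBS level 7.30 times that of Akk.

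The Pir values in Akk rested on only 7, 10 and 19 counts, against 73, 107 and 74 in PBS. The highest upper limit of the exact Poisson 95% intervals in Akk was 1.14 CPM, in replicate 3, and the lowest lower limit in PBS was 2.11 CPM, in replicate 3. The separation was thus larger than counting error, but the size of the fold was loosely set: the coefficient of variation of Pir in Akk was 58.0%, against 10.3% for Nqo1. The fitted log2 fold change of Pir was -2.90 (SE 0.57), or -3.46 (SE 0.60) without Akk replicate 3. On the log2(FPKM + 1) scale, which understates the change of low genes, it was -1.02. The authors' deposited table gives Pir a log2 fold change of -1.89 and a p-value of 2.21e-05.

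Absence of overlap does not set these genes apart within the table. All Akk libraries lay below all PBS libraries for 913 of the 1386 rows (65.9%), which were 87.8% of the 1040 rows marked lower. Against PBS replicates 1 and 3 alone, 88.0% of the rows marked lower did not overlap. The width of the gap between the groups was larger than in most of these rows: the median ratio of lowest PBS to highest Akk was 1.29 over the rows marked lower, and 40 rows exceeded Nqo1 and 5 exceeded Pir.

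**Figure D1:**
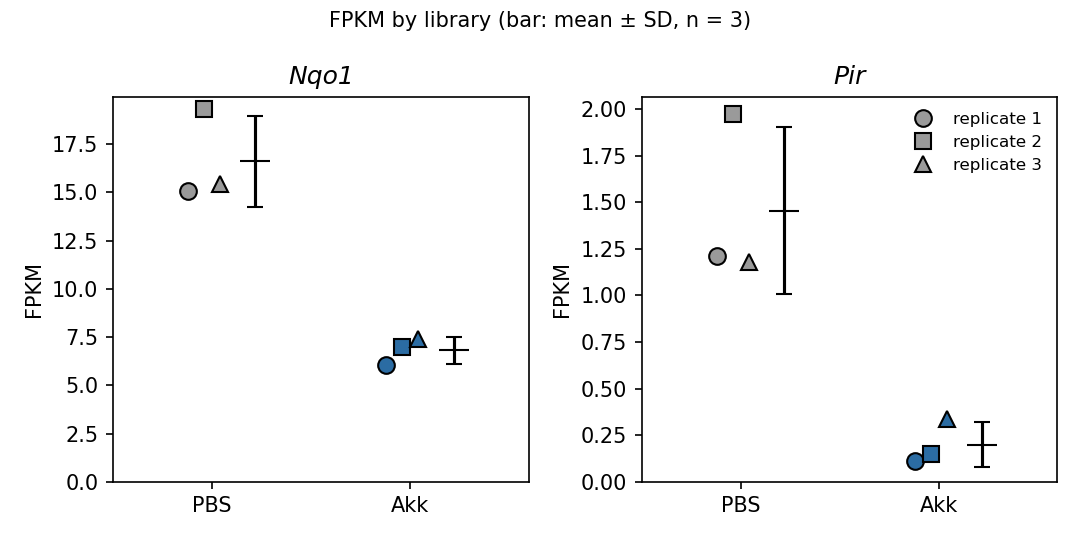
FPKM of Nqo1 (left) and Pir (right) in each library, PBS in grey and Akk in blue, with the symbol giving the replicate number and the bar the group mean ± SD (n = 3). All Akk points lie below all PBS points, with Nqo1 at 6.06 to 7.43 against 15.1 to 19.3 and Pir at 0.114 to 0.337 against 1.18 to 1.97.

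Both genes were highest in PBS replicate 2 and lowest in Akk replicate 1. The shares of all rows with these highest and lowest libraries were not computed, so neither is called particular to the pair. Yet PBS replicate 2 weighed little on either gene. Its CPM was 1.27 times the mean of the other PBS libraries for Nqo1 and 1.65 times for Pir. Only 21 of the 1040 rows marked lower had a smaller ratio than Nqo1, and 39 had a smaller ratio than Pir. The coefficient of variation over the 3 PBS libraries was 14.1% for Nqo1 and 31.0% for Pir, where the median over the rows marked lower was 106%.

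**Figure D2:**
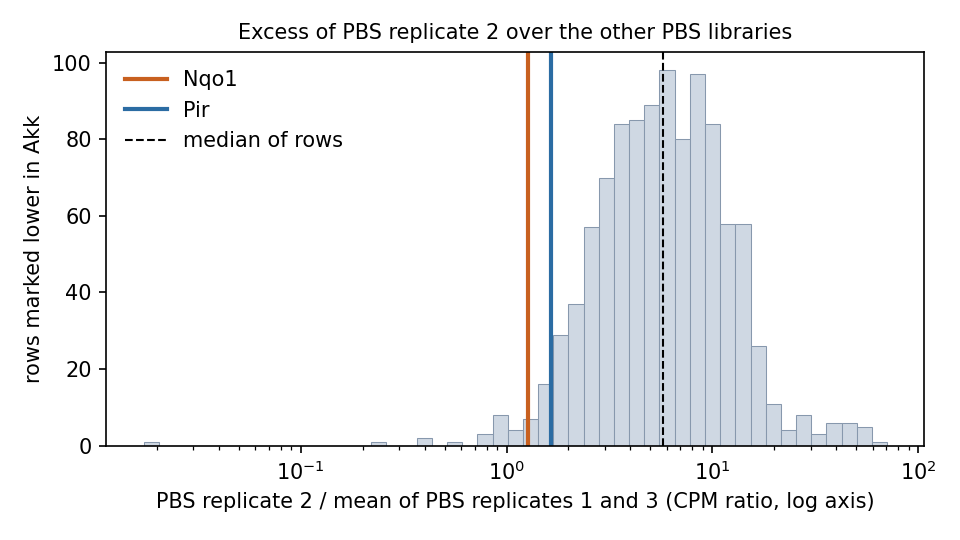
Distribution over the 1040 rows marked lower in Akk of the CPM in PBS replicate 2 divided by the mean of PBS replicates 1 and 3 (log axis), with coloured lines for Nqo1 (1.27) and Pir (1.65) and a dashed line for the median (5.74). Both genes lie in the lower tail.

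Leaving out PBS replicate 2 moved the place of both genes within the table far more than their own values. For Nqo1 the fitted log2 fold change went from -1.28 to -1.16 (SE 0.19), and the number of rows marked lower with a more negative value went from 964 to 151. For Pir it went from -2.90 to -2.63 (SE 0.49), and the number of such rows went from 222 to 6. Over the same 1040 rows the median went from -2.19 to -0.78. In FPKM, the mean of PBS replicates 1 and 3 was 2.24 times the Akk mean for Nqo1 and 5.998 times for Pir.

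**Figure D3:**
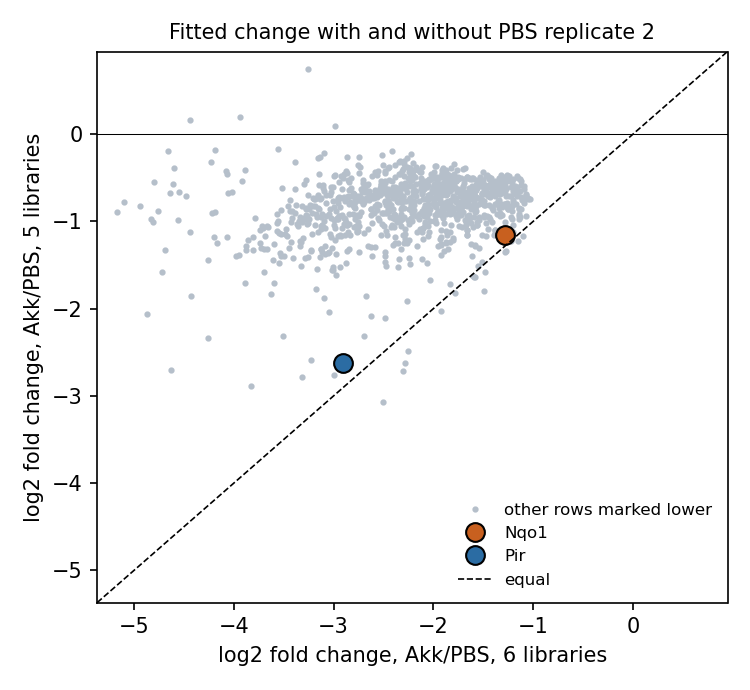
Fitted log2 fold change (Akk over PBS) with all 6 libraries (x axis) against that without PBS replicate 2 (y axis) for the 1040 rows marked lower, with Nqo1 in orange, Pir in blue and a dashed line of equal values. Most rows lie well above the line, whereas Nqo1 (-1.28 and -1.16) and Pir (-2.90 and -2.63) lie near it.

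The scaling of the libraries changed the value of Nqo1 more than any library did. With TMM factors computed from the listed genes, the fitted log2 fold change was -0.13 (SE 0.45) for Nqo1 and -1.67 (SE 0.58) for Pir, and the median of all 1386 rows went from -1.85 to -0.17. Such factors take most genes as unchanged, which a table of selected genes does not meet. Relative to the median of all rows, Nqo1 lay 0.57 higher with the recovered depth and 0.04 higher with TMM, whereas Pir lay at -1.05 and -1.50. Without PBS replicate 2 these differences from the median were -0.50 for Nqo1 and -1.97 for Pir with the recovered depth. With TMM on the same 5 libraries, a combination chosen after seeing the data, they were also -0.50 and -1.97. Between these fits the median of all rows moved from -0.66 to -0.09. A near-equal shift of all rows leaves such differences unchanged, so the match is no check on the scaling.

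**Figure D4:**
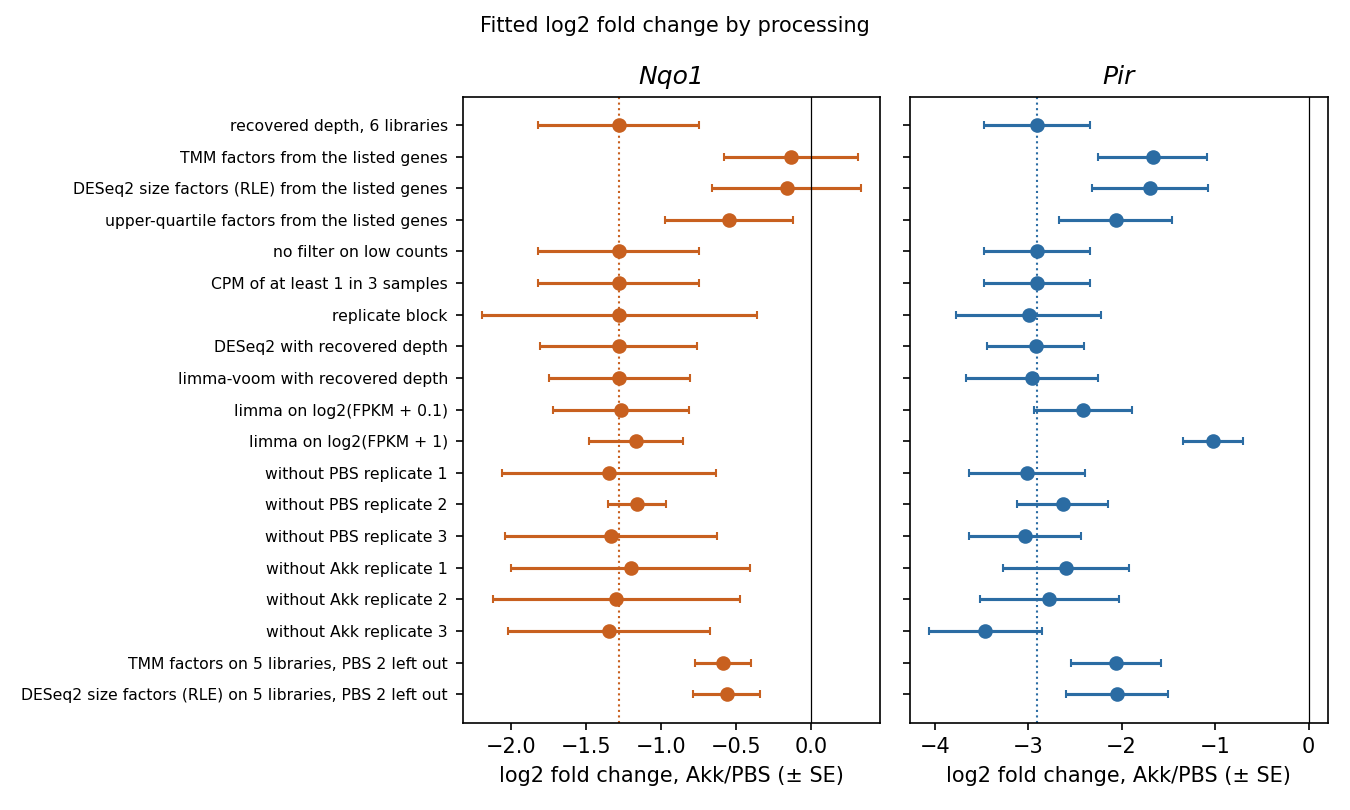
Fitted log2 fold change of Akk over PBS (± SE) for Nqo1 (left) and Pir (right) under each processing, with a dotted line at the value from the recovered depth and 6 libraries. All values are below 0, and the Nqo1 values nearest to 0 are those with TMM (-0.13) and RLE (-0.16) factors from the listed genes.

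By the values as measured, the difference between the groups was not in proportion for the pair. Pir stood at 8.05, 10.2 and 7.63 FPKM per 100 FPKM of Nqo1 in PBS replicates 1 to 3, and at 1.88, 2.11 and 4.54 in Akk replicates 1 to 3. The ranges of this within-library ratio, which does not depend on the depth, did not overlap. In Akk the ratio rests on 7, 10 and 19 counts of Pir, and its counting error was not computed. Nor was the share of other gene pairs whose ratio did not overlap, so the lack of proportion is a description only. Akk replicate 3 was the highest Akk library for both genes. FPKM and counts implied a length of 2215 to 2219 bases for Nqo1 in every library. For Pir the implied length was 2284 to 2301 bases in PBS and 2086 to 2457 bases in Akk, where counts were low.

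Across the 6 libraries the log2 CPM of Nqo1 and Pir had a Pearson r of 0.99. The libraries fall into 2 groups and share their depth, so that r is high for any gene with a gap between the groups, and it is given only to rank likeness. Among 1322 named rows with a mean count of at least 20, none had a higher r with Nqo1 than Pir did. The next were Plscr1, a phospholipid scramblase induced by interferon, Gstp3, a pi-class glutathione S-transferase, Hnrnpa3, an RNA-binding protein, and Tcf23, a transcription factor of the basic helix-loop-helix family (r = 0.98 to 0.99). Those most like Pir were Plscr1, Nqo1, Rflnb, Zfp791 and Cotl1, an actin-binding protein (r = 0.98 to 0.99).

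All 7 rows named beside the pair were marked lower, as were 75.0% of all rows. Their Akk and PBS libraries did not overlap, as in 87.8% of the rows marked lower, and a choice by likeness to genes with a gap between the groups favours both. With TMM factors Plscr1 and Gstp3 were at -0.09 and -0.07, and Rflnb turned from -1.13 to 0.05. Plscr1 had 18.9 ± 3.26 FPKM in PBS against 7.90 ± 0.915 in Akk (SD, n = 3), and its log2 fold change of -1.26 (SE 0.49) was close to that of Nqo1. Gstp3 had 6.67 ± 0.858 FPKM in PBS against 2.90 ± 0.300 in Akk, with a fitted value of -1.20 (SE 0.55), although reads of near-identical pi-class copies could have been split by the counting. In PBS replicate 2, Plscr1 and Gstp3 exceeded the mean of the other PBS libraries by 1.34-fold and 1.16-fold.

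Other genes of the NRF2 system were looked for in the table. The share of all mouse genes that it lists was not computed, so the count found is not called few or many. Of 73 regulators and targets in 7 lists, 7 were listed, Nqo1 and Pir among them, 6 as lower and 1 as higher in Akk, where 75.0% of all rows were marked lower. The 66 others, among them Nfe2l2, Keap1, Hmox1, Gclc, Gclm, Slc7a11, Txnrd1 and Srxn1, were not listed. None of the genes chosen for thioredoxin, peroxiredoxin and superoxide enzymes (8 genes), NADPH supply (6 genes) or conjugation and export (11 genes) was listed. These lists do not hold every related gene, and rows outside them were not counted. Prdx4, Txnrd3, Idh2 and Nnt, for example, were marked lower, as were 75.0% of all rows. Their log2 fold changes were -1.98, -2.11, -2.04 and -1.65, or -0.73, -1.43, -1.12 and -0.99 without PBS replicate 2. The lists were chosen with earlier results of these data known.

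Among the 11 quinone and carbonyl reductases, Nqo1 and Akr1c13 were listed. Akr1c13, an aldo-keto reductase, had 67.1, 49.9 and 49.3 FPKM in the PBS libraries (replicates 1 to 3), while the Akk libraries had 17.4, 20.1 and 31.4. The groups did not overlap, and Akr1c13 was, unlike Nqo1, highest in PBS replicate 1. Its log2 fold change of -1.27 (SE 0.48) was -1.34 without PBS replicate 2 and -0.27 with TMM factors. Close copies in the Akr1c cluster make its single value uncertain.

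Of the 19 genes of glutathione synthesis and use, 3 were listed, all as lower (75.0% of all rows), and none overlapped between the groups (87.8% of the rows marked lower did not). Gsr, the glutathione reductase, had 85.7 ± 48.8 FPKM in PBS, with 142 in PBS replicate 2, against 32.3 ± 8.11 in Akk (SD, n = 3). Gpx1, a glutathione peroxidase, had 204 ± 102 FPKM in PBS, with 322 in PBS replicate 2, against 69.7 ± 9.36 in Akk. Without PBS replicate 2 their log2 fold changes went from -1.41 to -0.83 and from -1.44 to -0.95, so that Gsr and Gpx1 rested on that library more than Nqo1 and Pir did. With TMM factors they were 0.02 and -0.07.

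Gsta3, an alpha-class glutathione S-transferase with close copies, was, like Pir, low in level. Its FPKM averaged 1.19 ± 0.517 in PBS against 0.266 ± 0.0715 in Akk (SD, n = 3). The fitted log2 fold change was -1.92 (SE 0.46), -2.03 without PBS replicate 2 and -0.92 with TMM factors. PBS replicate 2 lay at 0.780 times the mean of the other PBS libraries for Gsta3.

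Mafk, which encodes a small MAF partner of NRF2 and was 1 of 10 regulators listed, was the single gene of these lists marked higher. The PBS libraries had 13.9, 15.5 and 17.2 FPKM (replicates 1 to 3), while the Akk libraries had 18.2, 19.7 and 19.9. The groups did not overlap, as in 37.9% of the rows marked higher, with a log2 fold change of 0.31 (SE 0.43) that was 1.38 with TMM and 1.35 with RLE factors.

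Of the 12 genes of the aryl hydrocarbon receptor battery, which shares Nqo1 with the lists above, Nqo1 and Cyp1a1 were listed, in opposite directions. Cyp1a1, the cytochrome P450 most induced by that receptor, had an FPKM of 5.70, 0.923 and 10.3 in PBS replicates 1 to 3. It had 41.7, 18.4 and 5.28 in Akk replicates 1 to 3. Its groups overlapped, with Akk replicate 3 below PBS replicates 1 and 3. The log2 fold change of Cyp1a1 was 1.95 (SE 0.99), or 1.45 (SE 0.79) without PBS replicate 2 and 2.73 with TMM factors.

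**Figure D5:**
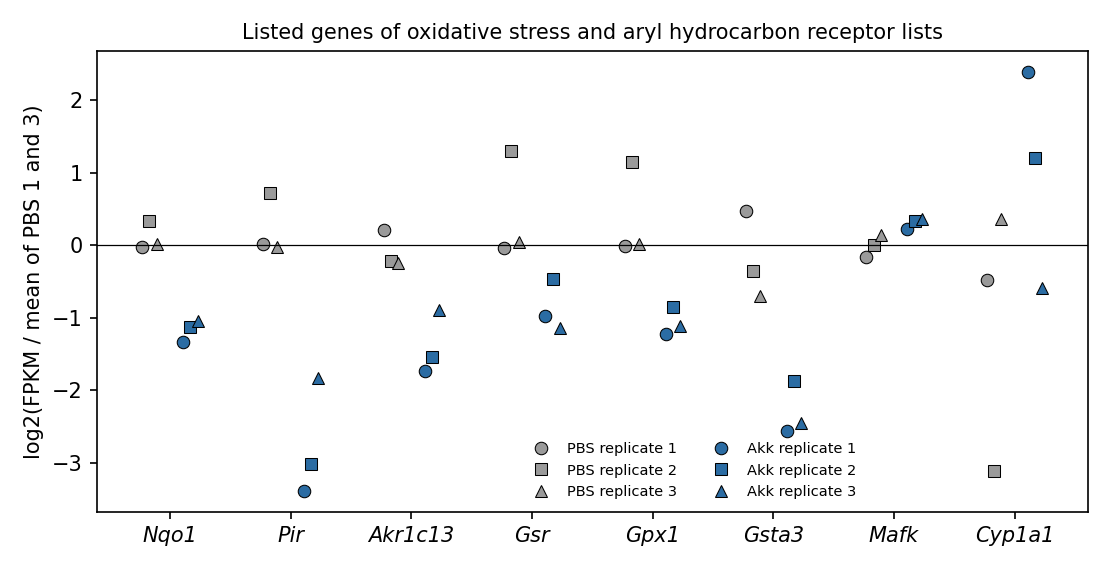
FPKM of each library relative to the mean of PBS replicates 1 and 3 (log2 axis) for the 7 listed genes of the NRF2 lists and for Cyp1a1, PBS in grey and Akk in blue, with the symbol giving the replicate number. Nqo1, Pir, Akr1c13, Gsr, Gpx1 and Gsta3 have all Akk points below all PBS points, Mafk has them above, and Cyp1a1 overlaps.

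Partners of pirin were in part listed. Of the 17 genes for NF-kB subunits and regulators, Bcl3 and NFI factors, Nfib and Nfix were listed as lower (75.0% of all rows) and Nfkbiz as higher. Bcl3 was not listed. Nfib averaged 2.64 ± 1.85 FPKM in PBS against 0.815 ± 0.0821 in Akk, and Nfix 3.49 ± 3.37 against 0.747 ± 0.155 (SD, n = 3). The libraries of Nfib and Nfix did not overlap between the groups, as in 87.8% of the rows marked lower. PBS replicate 2 held 4.77 and 7.39 FPKM, and without it the log2 fold changes went from -1.57 to -0.83 and from -1.99 to -0.80. With TMM factors they were -0.06 and -0.26. Nfkbiz, which encodes an inducible nuclear regulator of NF-kB, overlapped between groups at 17.5 ± 2.56 FPKM in PBS against 21.04 ± 5.55 in Akk.

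Other stress lists leaned on PBS replicate 2 more than Nqo1 and Pir. Of 10 genes for p53 and its targets, Trp53 alone was listed, with a log2 fold change of -1.71 that was -0.40 without PBS replicate 2 and turned to 0.08 with TMM and 0.11 with RLE factors. Of 11 genes of the ATF4 stress response, 6 were listed, all as lower (Asns, Psat1, Phgdh, Shmt2, Mthfd2 and Atf5), and 5 did not overlap between the groups, where 75.0% of all rows were marked lower and 87.8% of these did not overlap. The 6 genes had a median fitted value of -2.23 (log2), which became -0.97 when PBS replicate 2 was left out and -0.45 with TMM factors. Each of the 6 was highest in PBS replicate 2, at a median of 6.06 times the mean of the other PBS libraries. This is near the median of 5.74 over all 1040 rows marked lower, and so is not particular to the ATF4 genes. The share of all rows that were highest in PBS replicate 2 was not computed.

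Of the nearest protein-coding genes on either side of the pair, 1 of 4 was listed. The share of all protein-coding genes that are listed was not computed. Nob1, a ribosome biogenesis endonuclease, lies 9279 bases beyond Nqo1 and was listed as lower. Nob1 averaged 8.08 ± 9.55 FPKM in PBS, with 19.1 in PBS replicate 2, against 1.67 ± 0.525 in Akk (SD, n = 3), and its log2 fold change went from -2.27 to -0.60 without that library and to -0.35 with TMM factors. Nfat5 on the other side of Nqo1 was not listed, nor were Bmx and Vegfd on either side of Pir, although only 366 bases separate Vegfd from its end.

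Levels of markers of other epithelial cells differed between the same libraries. The 12 of 15 Paneth cell markers listed summed to 175 to 204 FPKM in Akk, 229 and 253 in PBS replicates 1 and 3 and 9119 in PBS replicate 2. The 6 of 15 stem cell markers listed summed to 7.28 to 10.7 in Akk, 13.8 and 16.1 in PBS replicates 1 and 3 and 632 in PBS replicate 2. The 21 of 22 proliferation genes listed summed to 28.2 to 37.7, 59.7 and 52.99, and 667 in the same order.

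The 3 of 15 absorptive enterocyte markers listed (Apoa4, Apob and Apoc3) summed to 4538 to 6180 FPKM in Akk, 2343 and 3862 in PBS replicates 1 and 3 and 657 in PBS replicate 2. Their presence in every library is no check of the epithelial label, since whole intestine holds epithelium too. The 3 of 10 genes of the goblet cell list that were listed (Zg16 and Muc13 as higher, Ccl9 as lower) summed to 2095 to 2996 in Akk and 1253 to 2063 in PBS. Muc13 alone held 826 to 1632 FPKM in Akk and 579 to 857 in PBS. Whether it is particular to goblet cells was not tested, so the sum is no measure of these cells. Taken singly, all 3 genes overlapped between the groups. Of all rows, 37.9% of those marked higher and 87.8% of those marked lower did not overlap. The 3 of 12 enteroendocrine markers listed (Gip and Sst as higher, Gcg as lower) summed to 81.5 to 84.99 in Akk and 44.6 to 62.7 in PBS. No listed marker of these 6 lists was at 0 in any library, and no tuft cell, leukocyte or stromal marker was listed. Since the rows were selected on the contrast, an unlisted marker says nothing on the purity of the samples. The summed crypt markers of PBS replicate 2 were thus over 10 times those of the other PBS libraries, where Nqo1 and Pir differed by 1.27-fold and 1.65-fold. The summed levels of the crypt lists were also lower in every Akk library than in PBS replicates 1 and 3. All listed crypt markers were rows marked lower, so this follows in part from the selection. Between the groups, 5 of the 12 listed Paneth cell markers, 3 of the 21 proliferation genes and none of the 6 stem cell markers overlapped. Of all rows marked lower, 87.8% did not overlap. The Paneth markers Defa30 and Itln1 turned to log2 fold changes of 0.16 and 0.09 without PBS replicate 2. The part of these markers in the values of the pair was not tested. In bulk samples, fewer cells of a type and less RNA per cell cannot be told apart.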

How the data were processed

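Total RNA of intestinal epithelial cells was extracted with Trizol and made into Illumina mRNA libraries, per the labels' protocols. The submitters' processing notes name the build mm10, while for aligner, counter, strand setting and test nothing was found (not given in the sources used here). In 1 table, the authors deposited raw read counts and FPKM for the 6 libraries, per the file headers, and a p-value and log2 fold change of Akk over PBS per row. Whether these p-values were adjusted is not recorded. Left out were 2 lines of annotation text.

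The count divided by FPKM gave each library's depth, over 560 genes with at least 200 counts in every library, with exon lengths of 548 of them (GENCODE M21, GRCm38), since column totals of selected rows are not depth. Counts were fitted over all 1386 rows with edgeR 4.0.16 (quasi-likelihood, filterByExpr, R 4.3.3) and this depth as library size, without a replicate term. The fit was used for fold changes and standard errors, and no p is printed, because rows and genes were selected on this contrast. No row was removed by a filter on low counts, and Pir reached a CPM of 1 in PBS alone.

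The pair and the gene lists were chosen with earlier results of these data known. Named were both genes, every listed member of the pathway lists with values for up to 4 per list, and the 5 rows of most like pattern (Pearson r of log2(CPM + 0.5)). Adjoining genes and Nob1 were chosen after their values were seen. Alternatives were TMM, RLE and upper-quartile factors, filters on low counts, DESeq2 1.42.0, a replicate block, limma 3.58.1 on voom values and on log2(FPKM + 0.1) and log2(FPKM + 1), and each library left out in turn.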

Additional observations from a re-analysis of the deposited data

How the results depend on the processing

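Both genes kept a negative log2 fold change in every alternative run. Factors from the listed genes gave Nqo1 -0.13 (TMM, SE 0.45), -0.16 (RLE, SE 0.50) and -0.55 (upper quartile, SE 0.42). In the same order Pir had -1.67 (SE 0.58), -1.69 (SE 0.62) and -2.06 (SE 0.60). The TMM and RLE values of Nqo1 were smaller in size than their SE, so their sign carries little weight. With PBS replicate 2 also left out, chosen after seeing the data, TMM gave -0.59 and RLE -0.56 for Nqo1, and -2.06 and -2.05 for Pir. The FPKM scale gave -2.41 (pseudocount 0.1) and -1.02 (pseudocount 1) for Pir. Without 1 library at a time the values were -1.35 to -1.16 for Nqo1 and -3.46 to -2.60 for Pir. DESeq2 and limma-voom with the recovered depth, and the filters on low counts, which removed no row, moved neither value by more than the spread between replicates, nor did FPKM in place of CPM for the ratio of PBS replicate 2. With the replicate number as a block the values were -1.28 (SE 0.92) and -2.99 (SE 0.78). Same-numbered libraries deviated from their group means with r of 0.24, -0.08 and -0.30 across rows, and not every library correlated best with its own number, so the numbers were not taken as pairs. The Pir fold rests on few counts in Akk.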
